A study of Homo sapiens with 6 samples.

Results

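The naive-state marker genes of human pluripotent stem cells were described here in H9, an established human embryonic stem cell line grown in the primed state. The 10 members were the listed symbols DPPA2, DPPA3, DPPA5, TFCP2L1, TBX3, ESRRB, DNMT3L, SUSD2, ALPPL2 and IL6ST, and all 10 were found among the 53715 genes of the raw count table. The cells carried a fluorescein-tagged oligonucleotide of 1 of 3 kinds: an antisense oligo against LINE1 (ASO-L1), a sense oligo of LINE1 (sO-L1) or a non-targeting antisense oligo (ASO-Ctr), each at 25 nM, with 2 libraries per group. LINE1 is a family of transposable elements present in many copies in the human genome, and the stated question is its role in restraining genes of the 8-cell embryo. Cells positive for the tag were sorted 48 hours after transfection, and poly(A) RNA was sequenced. To help them survive transfection, the cells of all groups, ASO-Ctr included, were kept for the first 24 hours in ISRIB (0.7 uM), which blocks the integrated stress response, in the caspase inhibitor emricasan (5 uM) and in the ROCK inhibitor Y-27632 (10 uM). The labels disagree on the medium after transfection: 1 names mTeSR, a primed-state medium, and another RSeT, a medium sold for naive-like cells. Whichever it was, no label gives it for 1 group alone.

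Naive cells resemble the pre-implantation epiblast and primed cells the later, post-implantation epiblast, and human embryonic stem cells in standard media are primed. Naive cells carry little DNA methylation and depend on a network of transcription factors in which TFCP2L1, KLF4, KLF5 and KLF17 take part, whereas ESRRB is a central factor in the mouse. Signals of the LIF and interleukin-6 family pass through the shared receptor gp130, the product of IL6ST, to the kinase JAK1 and the factor STAT3, which sustains naive cells. SUSD2 and ALPPL2 encode surface proteins used to sort human naive cells, and DPPA3, DPPA5 and DNMT3L are transcripts by which naive cultures are usually told from primed ones.

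The sequences just upstream of 3 members are shown because their promoters differ in CpG content, and CpGs are where DNA methylation acts: DPPA3, whose level differed between groups, DPPA5, which was close to the detection floor, and IL6ST, which had the most counts. Each is the 250 bases before the annotated start in RefSeq (build GRCh38.p14, 5′ to 3′ on the gene's strand), with CpG dinucleotides in capitals. DPPA3 lies at chr12:7711183-7711432 on the plus strand, DPPA5 at chr6:73354277-73354526 on the minus strand and IL6ST at chr5:55994964-55995213 on the minus strand.
DPPA3: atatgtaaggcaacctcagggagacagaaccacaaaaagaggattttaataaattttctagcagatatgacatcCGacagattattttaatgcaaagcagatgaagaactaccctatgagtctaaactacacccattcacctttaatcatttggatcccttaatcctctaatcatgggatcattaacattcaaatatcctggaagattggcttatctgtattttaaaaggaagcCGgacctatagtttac
DPPA5: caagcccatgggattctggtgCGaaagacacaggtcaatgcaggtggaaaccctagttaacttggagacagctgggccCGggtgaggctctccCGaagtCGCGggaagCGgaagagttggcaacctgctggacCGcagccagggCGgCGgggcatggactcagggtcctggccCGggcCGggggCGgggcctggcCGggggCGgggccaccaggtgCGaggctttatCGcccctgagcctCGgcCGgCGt
IL6ST: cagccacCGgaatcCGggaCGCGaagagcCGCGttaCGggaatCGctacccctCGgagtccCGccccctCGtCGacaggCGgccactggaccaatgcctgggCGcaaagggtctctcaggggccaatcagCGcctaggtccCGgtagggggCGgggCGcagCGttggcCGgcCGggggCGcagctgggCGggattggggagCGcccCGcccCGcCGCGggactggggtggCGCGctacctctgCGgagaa
The DPPA3 stretch held 2 CpGs, and 22.9% of the 35116 promoter entries of the same length held that many or fewer. DPPA5 held 19 (67.6%) and IL6ST 31 (90.5%), against a median of 11 over all entries. Of the other members with an entry, ALPPL2 held 2 (22.9%), DPPA2 7 (43.7%) and TFCP2L1 32 (91.9%), and the 3 ESRRB starts held 3, 4 and 5. Methylation of these stretches was not measured in the data used here.

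Library totals ran from 46223290 to 57899009 counts in ASO-L1, from 34665403 to 60999413 in sO-L1 and from 18897936 to 67192937 in ASO-Ctr, where replicate 1 was the shallowest library. A count of 0 allowed up to 0.159 CPM (counts relative to the gene total of their library) in that library and up to 0.0446 CPM in the deepest, taking 3 counts as the limit, and these limits and all Poisson intervals cover counting error only. The level of LINE1 RNA, the target of ASO-L1, was not analysed here. Calls are Benjamini-Hochberg adjusted p-values under 0.05 from edgeR's quasi-likelihood test over 19156 genes, blocked on the replicate number, and differences are given on the log2 scale ± SE, from n = 2 in each group. The block removes a shift shared by same-numbered libraries, and without it 352 genes in place of 4413 were called in ASO-L1 against sO-L1, so the adjusted p of that fit is given beside each call of a member. The labels do not say that replicates are separate cultures, so p-values measure the spread between these libraries, which may be technical. In bulk RNA, fewer cells that express a gene and less RNA per cell cannot be told apart.

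Most members were close to silent in these cells, and 7 of 10 had enough counts to be tested. The defining transcripts of pluripotent cells were abundant: POU5F1 averaged 1079 CPM, SOX2 443 CPM and the DNA methyltransferase DNMT3B 1571 CPM over the 6 libraries, and KLF17, a naive-state and 8-cell factor, had 2 counts in all. Per kb of exon, which allows levels to be set between genes, DPPA3 (1.71 CPM per kb), IL6ST (1.68), DPPA2 (1.34) and SUSD2 (1.17) were the highest members. TFCP2L1 (0.267), ALPPL2 (0.179), DPPA5 (0.0847), ESRRB (0.0484), DNMT3L (0.0405) and TBX3 (0.0106) followed. Neighbours in this order had overlapping ranges over the 6 libraries, except IL6ST over DPPA2 and SUSD2 over TFCP2L1. The members stood well below POU5F1 (372 CPM per kb), DPPA4 (213), ZFP42 (112) and NANOG (14.8). KLF4, another naive-state factor, averaged 0.727 CPM per kb, inside the range of the members. These levels are means over the 6 libraries and depend on the groups. KLF4 was at 1.62 and 1.27 in ASO-L1 and at 0.246 to 0.431 in the other groups. In sO-L1, DPPA3 was at 1.23 and 1.05, below IL6ST at 1.63 and 1.67. Exon lengths were taken from GENCODE v29 on GRCh38 and the counts were made on hg19, so levels per kb are approximate.

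**Figure D1:**
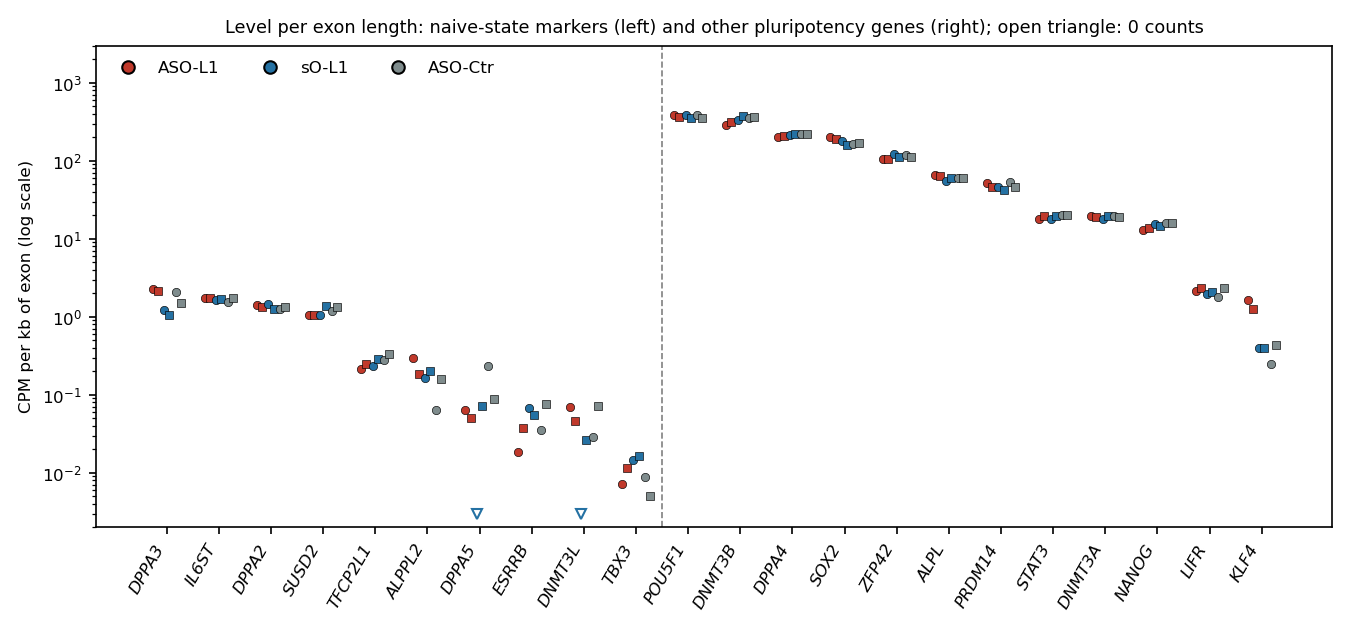
Level per exon length (CPM per kb, log axis) of the 10 naive-state markers, left of the dashed line in order of their mean, and of 12 other pluripotency genes, with circles for replicate 1, squares for replicate 2 and open triangles for libraries with 0 counts. The highest mean among the markers is that of DPPA3 (1.71), and POU5F1 (mean 372) is the highest gene shown.

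DPPA3 (also called STELLA), a maternal and germline protein that keeps DNA methylation low, was the member that changed. It had 113 and 135 counts in ASO-L1 (2.44 and 2.33 CPM), 46 and 69 counts in sO-L1 (1.33 and 1.13 CPM), against 42 and 110 counts in ASO-Ctr (2.22 and 1.64 CPM). The ASO-L1 libraries were the highest, the sO-L1 libraries the lowest and the ASO-Ctr libraries lay between, with no overlap of the 3 groups. DPPA3 rose in ASO-L1 against sO-L1 by 0.97 ± 0.20 (1.96-fold, 95% interval 1.49 to 2.58), with an adjusted p of 1.6e-04, and the ratio was 0.88 in replicate 1 and 1.04 in replicate 2 on the log2 scale. Without the replicate block the difference was 0.98 ± 0.23 and the call was lost (adjusted p = 0.0661). That fit was the 1 alternative that dropped the replicate term, so the others do not show how the call depends on it. With the block kept, the adjusted p was 0.0191 by DESeq2 and 8.1e-04 by limma-voom. Leaving out 1 library gave log2 differences from 0.81 to 1.10. Against ASO-Ctr, the difference of ASO-L1 was 0.39 ± 0.19 (adjusted p = 0.149, or 0.43 without the block) and that of sO-L1 was -0.58 ± 0.21 (adjusted p = 0.187, or 1 without the block), and neither passed. The first of these was 0.19 without ASO-Ctr replicate 2, 0.22 without ASO-L1 replicate 2 and 0.51 without ASO-Ctr replicate 1. The 3 comparisons share libraries pairwise and are not independent.

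Reads of DPPA3 can fall on a close copy. Of the 50-base windows of the longest DPPA3 transcript in GENCODE v29, 41.3% occur exactly in its pseudogene DPPA3P2, with a longest shared run of 161 bases, and how reads shared by both were counted is not given in the sources used here. DPPA3P2 had 16 and 20 counts in ASO-L1, 15 and 20 in sO-L1, against 1 and 13 in ASO-Ctr. Its libraries overlapped between ASO-L1 and sO-L1, with a difference of -0.09 ± 0.45 in ASO-L1 against sO-L1 (95% interval -0.99 to 0.81, adjusted p = 0.919). Both groups lay above ASO-Ctr, by 1.14 ± 0.54 in ASO-L1 (adjusted p = 0.135) and 1.23 ± 0.54 in sO-L1 (adjusted p = 0.310), and neither difference passed. Of the 4 nearest protein-coding genes in RefSeq on each side of DPPA3 on chromosome 12, 3 were tested in ASO-L1 against sO-L1. They did not move one way. GDF3, a ligand of the TGF-beta family, stood at -0.17 ± 0.14 (adjusted p = 0.396), and NANOG fell by 0.17 ± 0.05 (adjusted p = 0.0128, or 0.29 without the block). SLC2A14, a sugar transporter gene, rose by 0.37 ± 0.09 (adjusted p = 0.00148, or 0.267 without the block).

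DPPA2, a chromatin factor that works as a pair with its neighbour DPPA4, had like levels in all groups. It had 90 and 108 counts in ASO-L1 (1.95 and 1.87 CPM), 69 and 105 in sO-L1 (1.99 and 1.72 CPM), against 33 and 124 in ASO-Ctr (1.75 and 1.85 CPM). The libraries of all groups lay between 1.72 and 1.99 CPM. The difference was 0.06 ± 0.19 in ASO-L1 against sO-L1 (adjusted p = 0.867), with a 95% interval of the fold from 0.802 to 1.35. DPPA4 was 159 times as high per kb as DPPA2, and it too did not pass (-0.07 ± 0.05, adjusted p = 0.279, with 1028 CPM in ASO-L1 and 1085 CPM in sO-L1).

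DPPA5, an RNA-binding protein of naive cells, was at the detection floor. It had 2 and 2 counts in ASO-L1, 0 and 3 in sO-L1, against 3 and 4 in ASO-Ctr, 14 counts in all. Summed per group this is 0.0384 CPM in ASO-L1 (95% Poisson interval 0.0105 to 0.0984), 0.0314 CPM in sO-L1 (0.00647 to 0.0916) and 0.0813 CPM in ASO-Ctr (0.0327 to 0.168). The intervals overlap, and a difference between groups was not detectable at this depth.

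Of the 3 transcription factors, TFCP2L1 could be followed best. TFCP2L1, a grainyhead-related factor acting downstream of STAT3 in the naive network, had 94 and 136 counts in ASO-L1 (2.03 and 2.35 CPM), 75 and 167 in sO-L1 (2.16 and 2.74 CPM), against 49 and 211 in ASO-Ctr (2.59 and 3.14 CPM). Both ASO-L1 libraries lay below both ASO-Ctr libraries, and the sO-L1 libraries overlapped each of those groups. The difference of ASO-L1 from ASO-Ctr was -0.36 ± 0.17 (adjusted p = 0.118) and from sO-L1 -0.16 ± 0.16 (adjusted p = 0.542), and neither passed. Its relatives TFCP2 and UBP1 had -0.16 ± 0.05 (adjusted p = 0.0141, or 0.289 without the block) and 0.07 ± 0.05 (adjusted p = 0.339) in ASO-L1 against sO-L1.

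ESRRB, an orphan nuclear receptor, was near the floor, with 5 and 13 counts in ASO-L1 (0.108 and 0.225 CPM), 14 and 20 in sO-L1 (0.404 and 0.328 CPM), against 4 and 30 in ASO-Ctr (0.212 and 0.446 CPM). The ASO-L1 libraries were below both sO-L1 libraries and overlapped those of ASO-Ctr. The difference of ASO-L1 from ASO-Ctr was -1.04 ± 0.52 (adjusted p = 0.158) and did not pass, with log2 ratios of -0.97 in replicate 1 and -0.99 in replicate 2. The difference in ASO-L1 against sO-L1 was -1.04 ± 0.51 (adjusted p = 0.144), with a 95% interval of -2.07 to -0.02 that rests on 18 summed counts in ASO-L1 and 34 in sO-L1. It was -0.52 without sO-L1 replicate 1 and -1.89 without sO-L1 replicate 2, neither called. ESRRA and ESRRG, receptors of the same family, did not pass (0.08 ± 0.06 and -0.20 ± 0.20, adjusted p = 0.383 and 0.531). TBX3, a T-box factor, had 2 and 4 counts in ASO-L1, 3 and 6 in sO-L1, against 1 and 2 in ASO-Ctr. Its summed levels were 0.0576 CPM in ASO-L1 (0.0211 to 0.125), 0.0941 CPM in sO-L1 (0.043 to 0.179) and 0.0348 CPM in ASO-Ctr (0.00719 to 0.102), with overlapping Poisson intervals.

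DNMT3L, a cofactor without catalytic activity of the de novo DNA methyltransferases, had 6 and 5 counts in ASO-L1, 0 and 3 in sO-L1, against 1 and 9 in ASO-Ctr. The sums were 0.106 CPM in ASO-L1 (95% Poisson interval 0.0527 to 0.189), 0.0314 CPM in sO-L1 (0.00647 to 0.0916) and 0.116 CPM in ASO-Ctr (0.0557 to 0.214), so the intervals overlap here too. The enzymes it works with were abundant. DNMT3B fell in ASO-L1 against sO-L1, with 1405 CPM in ASO-L1 and 1640 CPM in sO-L1 (-0.22 ± 0.05, adjusted p = 3.1e-04, or 0.193 without the block), and DNMT3A did not pass (0.04 ± 0.05, adjusted p = 0.588).

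None of the members that encode surface proteins passed the test in any comparison with all libraries in the fit. SUSD2, a membrane protein bound by antibodies used for naive cells, had 256 and 320 counts in ASO-L1 (5.54 and 5.53 CPM), 195 and 442 in sO-L1 (5.63 and 7.25 CPM), against 117 and 469 in ASO-Ctr (6.19 and 6.98 CPM). The ASO-L1 libraries were the lowest, the sO-L1 and ASO-Ctr libraries overlapped, and sO-L1 replicate 1 stood just above the ASO-L1 libraries. The differences were -0.23 ± 0.11 against sO-L1 (adjusted p = 0.157) and -0.23 ± 0.12 against ASO-Ctr (adjusted p = 0.172), and neither passed. Leaving out 1 library gave -0.067 (without sO-L1 replicate 2) to -0.34 (without ASO-L1 replicate 1) against sO-L1, and -0.071 (without ASO-L1 replicate 2) to -0.34 (without ASO-L1 replicate 1) against ASO-Ctr. The 95% interval of the fold against sO-L1 ran from 0.729 to 1.002.

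ALPPL2, the germ cell form of alkaline phosphatase, had 34 and 27 counts in ASO-L1 (0.736 and 0.466 CPM), 14 and 31 in sO-L1 (0.404 and 0.508 CPM), against 3 and 27 in ASO-Ctr (0.159 and 0.402 CPM). ASO-L1 replicate 1 was the highest library and ASO-Ctr replicate 1 the lowest, and the other 4 lay close together. The difference in ASO-L1 was 0.35 ± 0.38 against sO-L1 (adjusted p = 0.562) and 0.83 ± 0.42 against ASO-Ctr (adjusted p = 0.158). With ASO-L1 replicate 2 left out, the difference from ASO-Ctr was 1.62 with an adjusted p of 0.0497, resting on 1 library that was assumed to vary like the others. With ASO-L1 replicate 1 left out it was 0.36, with ASO-Ctr replicate 1 left out 0.46 and with ASO-Ctr replicate 2 left out 2.01, none of them called. Of the 50-base windows of the ALPPL2 transcript, 29.3% occur exactly in its placental paralog ALPP, which had 24 counts in all, so how reads were divided between the 2 genes is uncertain. ALPL, the tissue-nonspecific alkaline phosphatase of pluripotent cells, rose by 0.18 ± 0.05 in ASO-L1 against sO-L1 (adjusted p = 0.00463, or 0.24 without the block), at 193 CPM in ASO-L1 and 171 CPM in sO-L1.

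IL6ST (gp130) was the member with the most counts and the narrowest intervals. It had 750 and 942 counts in ASO-L1 (16.2 and 16.3 CPM), 526 and 946 in sO-L1 (15.2 and 15.5 CPM), against 274 and 1083 in ASO-Ctr (14.5 and 16.1 CPM). Its means were 16.2 ± 0.0312 CPM in ASO-L1, 15.3 ± 0.237 CPM in sO-L1 and 15.3 ± 1.14 CPM in ASO-Ctr (SD, n = 2). The ASO-L1 libraries were higher than the other 4 by a small margin, and the difference from sO-L1 did not pass (0.09 ± 0.08, adjusted p = 0.46, 95% interval of the fold 0.954 to 1.19).

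**Figure D2:**
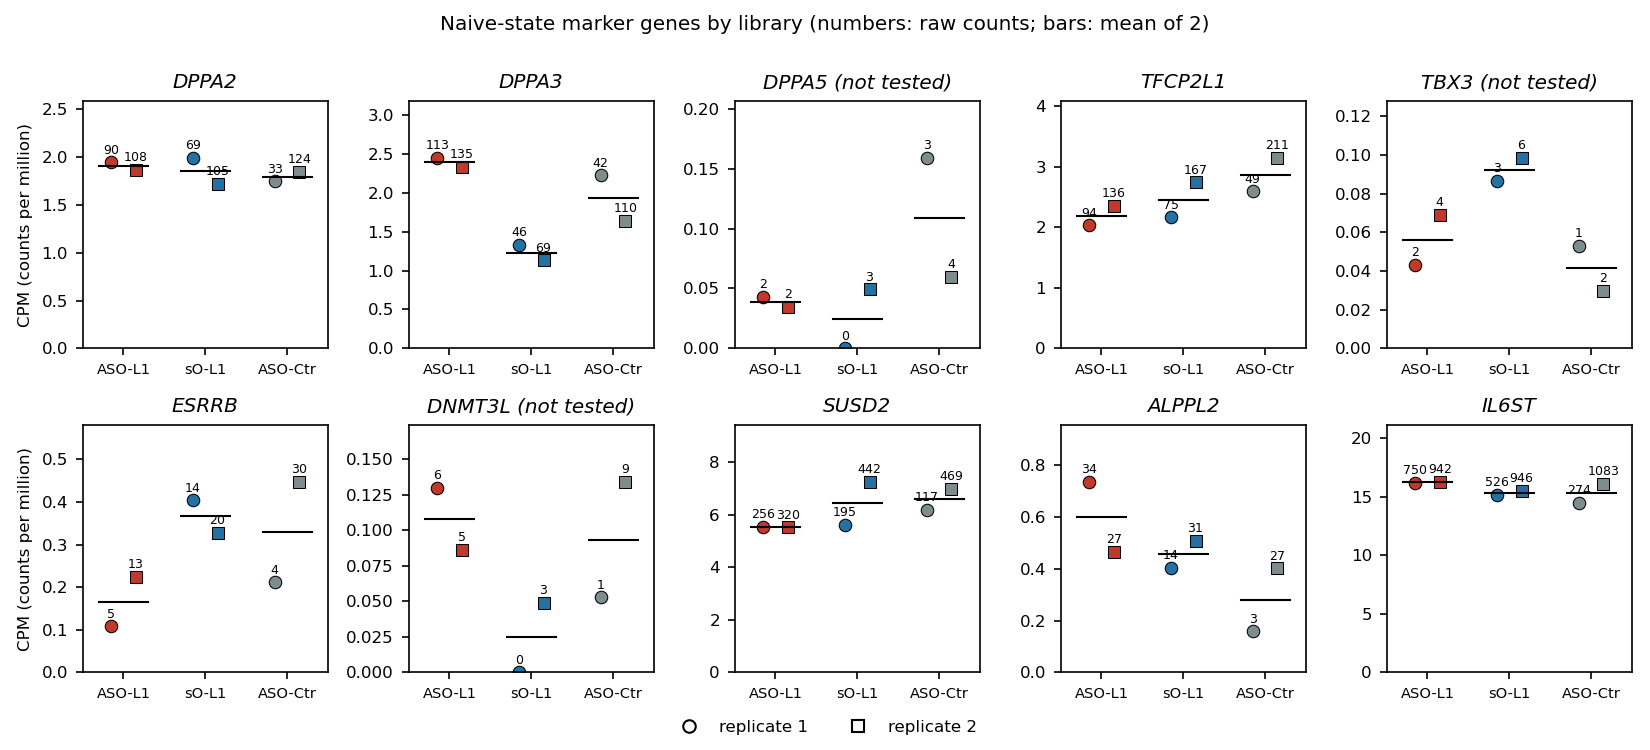
CPM of each naive-state marker in every library on a linear axis from 0, with its raw count beside the point, circles for replicate 1, squares for replicate 2 and a bar at the mean of 2. DPPA3 lies between 2.33 and 2.44 CPM in ASO-L1, above 1.13 to 1.33 CPM in sO-L1, and DPPA5, TBX3 and DNMT3L have fewer than 10 counts in every library.

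The share of markers called was not above that of all genes in any comparison. In ASO-L1 against sO-L1, 1 of the 7 tested members was called, against 23.0% of all 19156 genes tested, and 0 without the replicate block, against 1.84%. The median log2 fold change of the 7 was 0.06, and that of all genes tested -0.00. Their 95% intervals lay within a 2-fold change for 4 members and reached beyond it for DPPA3, ESRRB and ALPPL2. In ASO-L1 against ASO-Ctr, edgeR called 0 of 7, against 21.5% of all genes, with 2 members at an unadjusted p under 0.05. There limma-voom called 0 of 7 and DESeq2 0 of the 5 to which it gave an adjusted p, with 0 at an unadjusted p under 0.05 by either tool. In sO-L1 against ASO-Ctr, edgeR called 0 of 7, against 1.74% of all genes, with 1 member at an unadjusted p under 0.05, and limma-voom called 0, with 1. DESeq2 gave none of the 7 an adjusted p there, so it could call none, and 0 were at an unadjusted p under 0.05. The 3 members that were not tested have no call in any comparison, and their absence from the counts does not show that they were level.

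**Figure D3:**
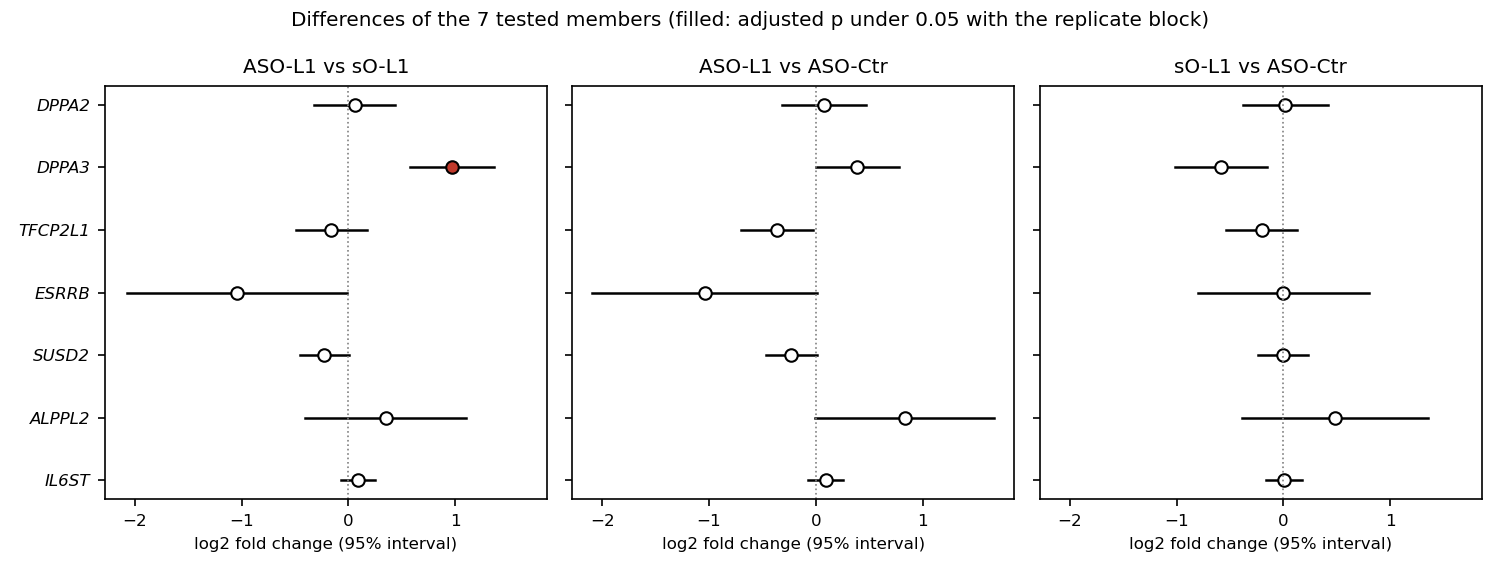
Log2 fold changes with 95% intervals of the 7 tested members in the 3 comparisons between groups, filled where the adjusted p with the replicate block was under 0.05. DPPA3 in ASO-L1 against sO-L1 (0.97) is the filled point, and the intervals of ESRRB and ALPPL2 are the widest.

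Other genes of the naive state moved in both directions. Of 29 listed, 17 were tested in ASO-L1 against sO-L1, and 6 were higher, 5 lower and 6 not called, with a median of -0.01 (1 higher and 0 lower without the replicate block). Of all genes tested, 10.4% were higher and 12.7% lower, and 1.84% were called without the block. KLF4 rose by 1.86 ± 0.17, with 274 and 270 counts in ASO-L1, 50 and 88 in sO-L1, against 17 and 106 in ASO-Ctr (adjusted p = 4.0e-12, or 0.00814 without the block). The homeobox factor GBX2 fell by 0.59 ± 0.12 (adjusted p = 2.6e-04, or 0.552 without the block), and ZFP42 (REX1), a zinc finger protein found in naive and primed human cells, fell by 0.17 ± 0.05 (adjusted p = 0.0064, or 0.331 without the block). Against ASO-Ctr, 2 were higher, 3 lower and 12 not called (1 higher and 0 lower without the block), KLF4 among the 2 (1.91 ± 0.18, adjusted p = 8.5e-12). Over all genes, 9.88% were higher and 11.6% lower in that comparison. In sO-L1 against ASO-Ctr, edgeR and limma-voom each called 0 of 17, with 3 at an unadjusted p under 0.05, and DESeq2, which gave 10 of them no adjusted p, called 0, with 1.

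In the pathway around IL6ST, the ligand LIF rose, and the LIF receptor and STAT3 did not pass the test. LIF had 576 and 724 counts in ASO-L1 (mean 12.5 CPM), 292 and 500 in sO-L1 (8.31 CPM), against 163 and 564 in ASO-Ctr (8.51 CPM), a difference of 0.60 ± 0.09 from sO-L1 (adjusted p = 1.9e-06, or 0.0314 without the block). Of 30 listed ligands, receptors, kinases, STATs, inhibitors and targets, 28 were tested, and 5 were higher, 2 lower and 21 not called in ASO-L1 against sO-L1, with a median of 0.10 (1 higher and 0 lower without the block). This share of genes called is near the 23.0% of all genes. The LIF receptor LIFR had 0.14 ± 0.07 (adjusted p = 0.13), STAT3 0.03 ± 0.05 (adjusted p = 0.767) and SOCS3, an inhibitor induced by STAT3, 0.15 ± 0.07 (adjusted p = 0.112), and none passed. IL6R, the interleukin-6 receptor, named after its values were seen, rose by 0.54 ± 0.19 at 2.37 CPM in ASO-L1 and 1.62 CPM in sO-L1 (adjusted p = 0.0357, or 0.466 without the block). The ASO-Ctr libraries of IL6R, at 1.22 and 2.59 CPM, lay on both sides of its ASO-L1 libraries (2.31 and 2.42 CPM). The kinase gene PIM3 and the inhibitor SOCS2 rose by 0.35 ± 0.06 and 0.26 ± 0.05 (adjusted p = 2.1e-05 and 5.5e-05, or 0.111 and 0.334 without the block), and STAT5B fell by 0.19 ± 0.05 (adjusted p = 0.00662, or 0.259 without the block). Against ASO-Ctr, 4 were higher, 2 lower and 22 not called (1 higher and 0 lower without the block), with LIF at 0.58 ± 0.10 (adjusted p = 6.3e-06). Over all genes, 21.5% were called in that comparison, 9.88% higher and 11.6% lower. In sO-L1 against ASO-Ctr, edgeR, DESeq2 and limma-voom each called 0 of 28, with 0 at an unadjusted p under 0.05, and DESeq2 gave 19 of them no adjusted p.

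Genes of primed and core pluripotency also moved both ways, beside 23.0% of all genes called. Of 14 tested primed markers, 6 were higher, 3 lower and 5 not called in ASO-L1 against sO-L1, with a median of 0.07 (1 higher and 0 lower without the block). OTX2, a homeobox factor of the primed epiblast, rose by 0.49 ± 0.05 (adjusted p = 3.2e-11, or 0.154 without the block) and the growth factor FGF2 by 0.33 ± 0.05 (adjusted p = 5.3e-07, or 0.0493 without the block), and the ERK phosphatase DUSP6 fell by 0.25 ± 0.05 (adjusted p = 3.5e-05, or 0.151 without the block). Of 10 core genes, 2 were higher, 3 lower and 5 not called, with a median of 0.03 (0 and 0 without the block, 4 at an unadjusted p under 0.05). The core genes NANOG and SALL4 are also counted among the other naive genes, so the tallies of those lists are not separate. SOX2 rose by 0.20 ± 0.05 (adjusted p = 0.00117, or 0.268 without the block), and L1TD1, an RNA-binding protein descended from LINE1, fell by 0.23 ± 0.05 (adjusted p = 1.2e-04, or 0.167 without the block). L1TD1 had 1492 and 1627 CPM in ASO-L1, 1820 and 1859 CPM in sO-L1, against 1556 and 1738 CPM in ASO-Ctr. Its ASO-L1 and ASO-Ctr libraries overlapped, and it was called higher in sO-L1 against ASO-Ctr with the block but not without it.

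DPPA3 is also a germline gene, and 3 of 4 tested germ cell markers, of 6 listed, were higher in ASO-L1 against sO-L1 (1 without the block), against 10.4% of all genes. With the same block limma-voom called 3 of the 4, and DESeq2 called 1 and gave 2 of them no adjusted p. The median of the 4 was 0.65 in edgeR. Against ASO-Ctr, 2 of the 4 were higher in ASO-L1, against 9.88% of all genes, with a median of 0.61, and DPPA3 was not called there. For those 4 against ASO-Ctr, limma-voom called 2, and DESeq2 called 1 and gave 1 no adjusted p. In sO-L1 against ASO-Ctr, where DPPA3 had -0.58, the median was -0.04, and edgeR and limma-voom called 0 of 4, with 0 at an unadjusted p under 0.05, while DESeq2 gave the 4 no adjusted p. PRDM1, a repressor that acts in germ cell specification among other lineages, rose by 1 ± 0.13 (adjusted p = 7.4e-08, or 0.04 without the block), SOX15 by 0.61 ± 0.15 (adjusted p = 0.00206, or 0.124 without the block) and TFAP2C, also counted among the naive genes, by 0.69 ± 0.25 (adjusted p = 0.0359, or 0.439 without the block). DAZL, an RNA-binding protein of germ cells, had -0.46 ± 0.22 (adjusted p = 0.136). The summed level of the 6 was 12.2 and 12 CPM in ASO-L1, 7.67 and 7.82 CPM in sO-L1, against 8.41 and 8.22 CPM in ASO-Ctr. The defining markers NANOS3 and DDX4 had 3 and 7 counts over all libraries. Whether the germ cell markers have a part in the DPPA3 result was not tested.

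Markers of the 8-cell stage and of trophoblast, which can share genes with naive cells, were mostly near 0. The 11 listed 8-cell genes in the table, with TPRX2 under the pseudogene symbol TPRX2P, at 0 counts, summed to 1.43 and 1.45 CPM in ASO-L1, 1.64 and 1.1 CPM in sO-L1, against 1.01 and 1.49 CPM in ASO-Ctr, nearly all of it CCNA1, a cyclin, the 1 gene tested (0.07 ± 0.23, adjusted p = 0.861). The trophoblast factors CDX2 and GATA3 had 2 and 12 counts over all libraries, HAND1, VGLL1 and SIGLEC6 were at 0, and the keratin KRT7, at 10 CPM in ASO-L1 and 10.7 CPM in sO-L1, held most of the trophoblast sum of 10.7 to 11.4 CPM. KRT7 and the nuclear receptor NR2F2, the 2 trophoblast genes tested, were not called (adjusted p = 0.578 and 0.962). Of the mesendoderm and endoderm factors, EOMES rose by 1.13 ± 0.41 at 0.731 CPM in ASO-L1 and 0.327 CPM in sO-L1 (adjusted p = 0.0404, or 0.362 without the block), and FOXA2 fell by 1.13 ± 0.16 at 1.77 CPM in ASO-L1 and 3.82 CPM in sO-L1 (adjusted p = 2.9e-07, or 0.0213 without the block), each the 1 called gene of 5 and 3 tested. The EOMES call was edgeR's alone. Both limma-voom and DESeq2 had 0 of the 5 mesendoderm genes at an unadjusted p under 0.05, and DESeq2 gave the 5 no adjusted p. Of 5 tested amnion genes TNC rose (0.41 ± 0.10, adjusted p = 0.00235, or 0.476 without the block), of 5 neural genes LHX2 (0.40 ± 0.12, adjusted p = 0.0102, or 0.48 without the block) and of 4 fibroblast genes the collagen gene COL1A1 (0.63 ± 0.06, adjusted p = 3.2e-09, or 0.029 without the block). These calls stand beside 23.0% of all genes called in ASO-L1 against sO-L1, or 1.84% without the block. For the 5 neural genes DESeq2 called 0, with 1 at an unadjusted p under 0.05 and 1 given no adjusted p. Against ASO-Ctr, 0 of 5 amnion genes were higher and 1 lower, and 1 endoderm gene was lower. In that comparison 1 mesendoderm, 2 neural and 1 fibroblast genes were higher, beside 21.5% of all genes called. The part of these markers in the DPPA3 result was not tested.

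**Figure D4:**
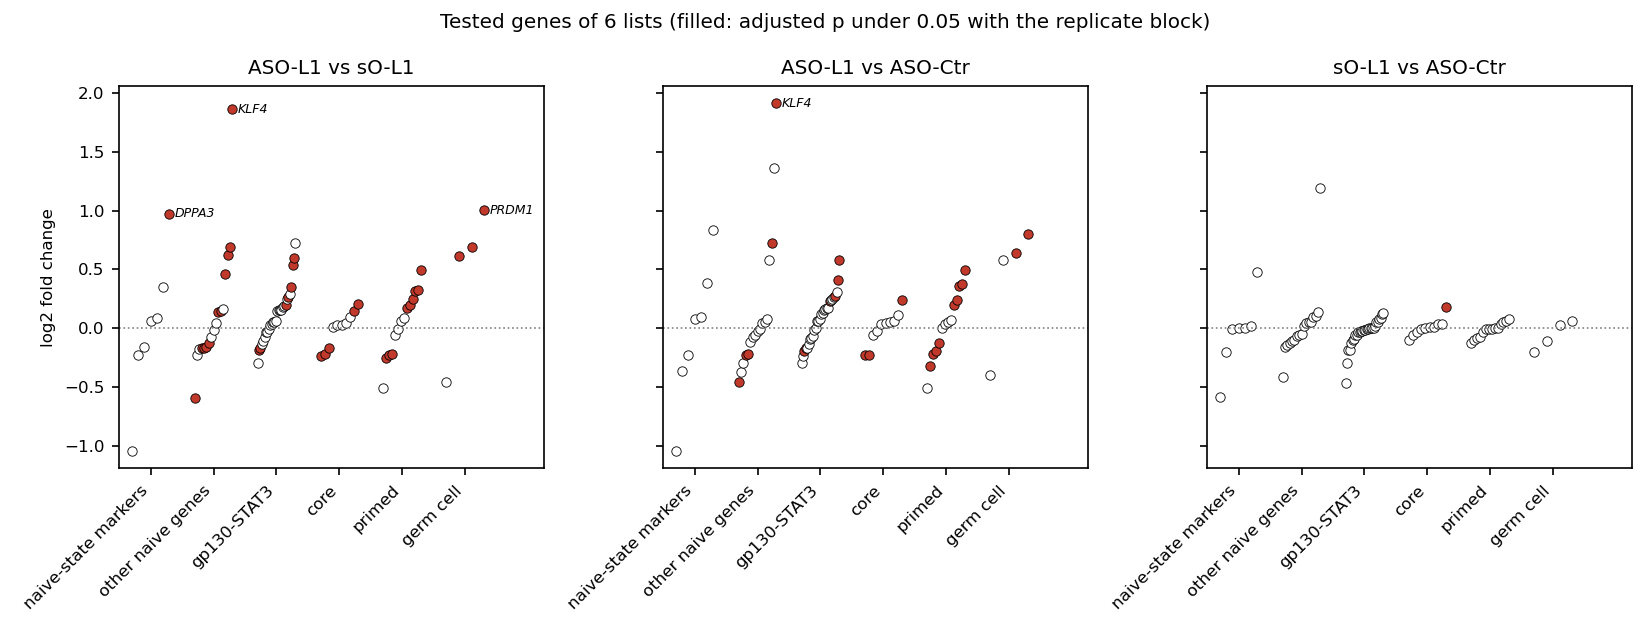
Log2 fold changes of every tested gene of 6 lists in the 3 comparisons, sorted within each list and filled where the adjusted p with the replicate block was under 0.05. In both ASO-L1 comparisons KLF4 (1.86 and 1.91) lies above the other genes of its list, and in sO-L1 against ASO-Ctr 1 gene, the core gene L1TD1 (0.18), is filled.

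Among 12883 other genes with a mean log2 CPM of at least 1, those whose log2 CPM followed DPPA3 most closely over the 6 libraries were RANBP3, a nuclear transport cofactor (Pearson's r = 0.996), DTNA, a dystrobrevin (0.993), and TACC2, a centrosomal protein (0.99). DTNA had 13.6 and 12.9 CPM in ASO-L1, 9 and 8.31 CPM in sO-L1, against 12 and 10.3 CPM in ASO-Ctr. As with DPPA3, ASO-Ctr lay between the other groups, and the differences of RANBP3 and TACC2 were smaller (0.16 and 0.25 in ASO-L1 against sO-L1). With 6 libraries and this many genes, high values of r are a description of these libraries only.

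The authors' deposited comparison table, ASO-L1 minus sO-L1, held 6 of the 10 members. It gives DPPA3 a log2 fold change of 0.98 with an adjusted p of 8.9e-04, and SUSD2 -0.23 with 0.208. In the authors' deposited table DPPA2, TFCP2L1, ALPPL2 and IL6ST have adjusted p-values from 0.425 to 0.84. The authors' deposited batch-corrected log2 table puts DPPA3 at 1.22 and 1.37 in ASO-L1, 0.33 and 0.31 in sO-L1, against 1.03 and 0.82 in ASO-Ctr, the order seen in the counts. DPPA5, TBX3, ESRRB and DNMT3L are in neither table.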

How the data were processed

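The 6 poly(A) RNA libraries of H9 cells were analysed. Per the submitters' processing notes, the tools were Trim Galore 0.4.0, TopHat2 2.0.13 and, from Subread 1.5.0, featureCounts, on build hg19. Duplicates had been removed from the deposited counts by the authors, as the table's name says, and whether counting used strand is not given in the sources used here. The authors' deposited log2 values are normalized and batch-corrected, and the authors' deposited comparison table adds p-values and moderated t scores. The 92 spike-in entries were left out.

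After TMM scaling, the counts of all 6 libraries went into 1 model in edgeR 4.0.16, run in R 4.3.3 (filterByExpr with a minimum count of 10 and a minimum total of 15, robust quasi-likelihood, terms for group and for replicate number, 2 residual degrees of freedom before moderation). CPM used each library's gene total, and SE was derived from F. The alternatives were DESeq2 1.42.0, limma-voom (limma 3.58.1), other scalings and filters, no replicate block, the 4 libraries compared, thinning and leaving out each library.

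The block follows the authors' batch-corrected table, and no label states a shared batch. The members and lists were chosen with earlier results of these data known. All members are described, the 4 genes of each list with the smallest p and the partners of the members were named by rule, except 1 gene that is not reported here, and POU5F1, KLF17, low marker counts and DPPA3P2 were added to describe levels. CD24 and DUXB could not be matched to the table.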

Additional observations from a re-analysis of the deposited data

How the results depend on the processing

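Of the members' log2 differences under the alternatives, 278 of 309 kept direction and call, 1 gained and 1 lost a call and 19 turned direction. In 10 more the direction held, but DESeq2 gave no adjusted p and no call was possible. Replicate numbers are shared between groups, but no label says that they mark a batch, and differences between replicates correlated at 0.278, 0.191 and 0.258 between groups over 19156 genes. These positive values are a hint from the data, not from the design, and with 2 numbers they do not establish a pairing. Replicate 2 was also the deeper library in every group, and the part of depth in these correlations was not tested. Without the replicate block 0 members were called in ASO-L1 against sO-L1 (DPPA3 0.98, adjusted p = 0.0661), and over all genes 352 were called in ASO-L1 against sO-L1, 374 in ASO-L1 against ASO-Ctr and 0 in sO-L1 against ASO-Ctr (569 at an unadjusted p under 0.05), against 4413, 4120 and 333 with it. DESeq2 called 2355, 2436 and 125 genes, limma-voom 191 in sO-L1 against ASO-Ctr, and a fit of the 4 libraries compared 516 there. Leaving out 1 library gave 1803 to 4702, 2336 to 3693 and 9 to 496 genes, and 0 to 1 members in ASO-L1 against ASO-Ctr, where ALPPL2 passed without ASO-L1 replicate 2.

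Leaving out 1 library gave DPPA2 -0.065 to 0.16 and ALPPL2 -0.22 to 1.05 in ASO-L1 against sO-L1, and in sO-L1 against ASO-Ctr DPPA2 -0.063 to 0.16, ESRRB -0.43 to 0.94, SUSD2 -0.18 to 0.10 and IL6ST -0.041 to 0.090. In that comparison ESRRB was 0.0019 with DESeq2 size factors, 0.0014 with no filter and 0.21 with DESeq2, SUSD2 0.0030 with limma-voom and 0.0070 with the 4 libraries compared, and IL6ST -0.0016 with upper-quartile scaling and -0.0054 with limma-voom. The cause was not tested. Depth limits DPPA5, TBX3, DNMT3L, ESRRB and ALPPL2, which had fewer than 10 counts in at least 1 library.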
